A study of Mus musculus with 12 samples.

Results

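The growth plate chondrocyte genes are 35 genes that the cartilage cells of the growing long bone are known to express, taken from a list of gene symbols. All 35 were found by symbol among the 32288 genes and transgenes of the count table. They were followed in bulk RNA-seq libraries of mGFP+ cells sorted from the metaphysis, the bone just below the growth plate. Juvenile and adult *Osx*+ osteoblasts came from *Osx-CreERT2*; *mTmG* mice at 3 weeks of age (4 libraries) and 8 weeks of age (4 libraries), and 2 male mice were pooled for each library, with cells from both femurs and tibias. *Osx-CreERT2* is a knock-in that puts a tamoxifen-dependent Cre under the *Osterix* (*Osx*, also called *Sp7*) gene, and *mTmG* changes its membrane protein from tdTomato to GFP where Cre has acted. *c-Myc*-induced osteoblasts (2 libraries) and *c-Myc* + *R172H* osteoblasts (2 libraries) carried in addition *LSL-tTA* and a *TetO-c-Myc* transgene at *Col1a1*, so that Cre switches on tTA and, without doxycycline, c-Myc. The second of these groups also had *Trp53-LSL-R172H*, which gives a dominant-negative p53 after Cre. All groups received tamoxifen, on 3 consecutive days in juvenile and adult mice and in 2 consecutive treatments in induced mice. Cells were collected 2 days after tamoxifen in juvenile and adult mice and 7 days after it in the induced mice. By the methods, mice with the *TetO-c-Myc* transgene, or pregnant females, drank doxycycline or tetracycline until some time before analysis. The sample titles give 3 weeks for the induced mice, whereas the protocol calls them 5-week-old. The diaphysis was trimmed at about 2 mm from the growth plate in reporter mice and at about 5 mm in induced mice. Differences of the induced groups from juvenile *Osx*+ osteoblasts therefore cannot be told apart from those of several other factors. These are tamoxifen treatment and time after it, antibiotic, age and length of bone taken. Sex may differ as well, since the protocol gives both sexes for the induced mice, and pooling is described only for the reporter mice. The methods describe the epiphysis as cut off through the growth plate, with leftover chondrocytes picked away under a stereomicroscope.

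The growth plate is a layered cartilage that lengthens the bone. Resting chondrocytes lie at its top, flattened cells divide in columns below them and lay down type II collagen and aggrecan, and the lowest cells stop dividing, enlarge and change to type X collagen before the cartilage is replaced by bone. *Sox9*, with *Sox5* and *Sox6*, drives the cartilage genes, while *Runx2* and *Runx3* promote enlargement, and sulphate transport is needed because aggrecan carries many sulphated sugar chains. *Osx* is active in osteoblasts and also in prehypertrophic and hypertrophic chondrocytes, so an *Osx* reporter can label both.

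Total counts were between 9066154 and 15684412 per library, and 3 counts, taken as the limit of detection, corresponded to 0.137 to 0.417 CPM. CPM are counts scaled to a common library size, with TMM factors. *Myc* had 39.8 to 52.2 CPM in the 8 reporter libraries and 624 to 747 CPM in the 4 induced libraries, the order that the labels give. *Xist* counts were found in replicate 2 of both induced groups (233 and 211 CPM). The protocol gives both sexes for the induced mice, and another passage of the methods gives males for RNA-seq. The osteoblast gene *Col1a1* took 21.4% to 39.1% of counts in the reporter libraries and 5.61% to 11.2% in the induced ones. *Gm26917*, a gene for a long non-coding RNA, took 4.7% to 10.5% of counts in the reporter and 26.5% to 29.4% in the induced libraries. The endothelial list of 4 genes summed to at most 1.14 CPM in any library, the blood cell list of 5 genes to at most 1.76 CPM and the muscle list of 4 genes to at most 3.24 CPM. The osteoclast list of 4 genes was higher, at 203 to 411 CPM in the reporter and 52.2 to 104 CPM in the induced libraries. *Pecam1*, *Cdh5*, *Emcn* and *Kdr* were at or under 3 counts in every reporter library, as were *Ptprc* and *S100a8*. Libraries within a group differed by more than counting noise, and nothing in the labels shows whether the induced replicates came from separate mice, so p-values measure the spread between these libraries.

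The cartilage genes were present in every library labelled as osteoblasts, in amounts that varied between groups. The 35 genes together took 1.98%, 2.24%, 1.87% and 0.674% of the counts in juvenile libraries 1 to 4. In adult libraries 1 to 4 they took 12.3%, 3.10%, 5.01% and 8.32%. The share was lower, at 0.128% and 0.0924% in the *c-Myc* libraries and at 0.0786% and 0.0784% in the *c-Myc* + *R172H* libraries. Every adult library therefore lay above every juvenile library, and every induced library below. More than 3 counts were found in each juvenile and each adult library for 33 of the 35 genes, the exceptions being *Prg4* and *Cytl1*. In bulk samples, fewer chondrocytes and less cartilage RNA per cell cannot be told apart.

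**Figure D1:**
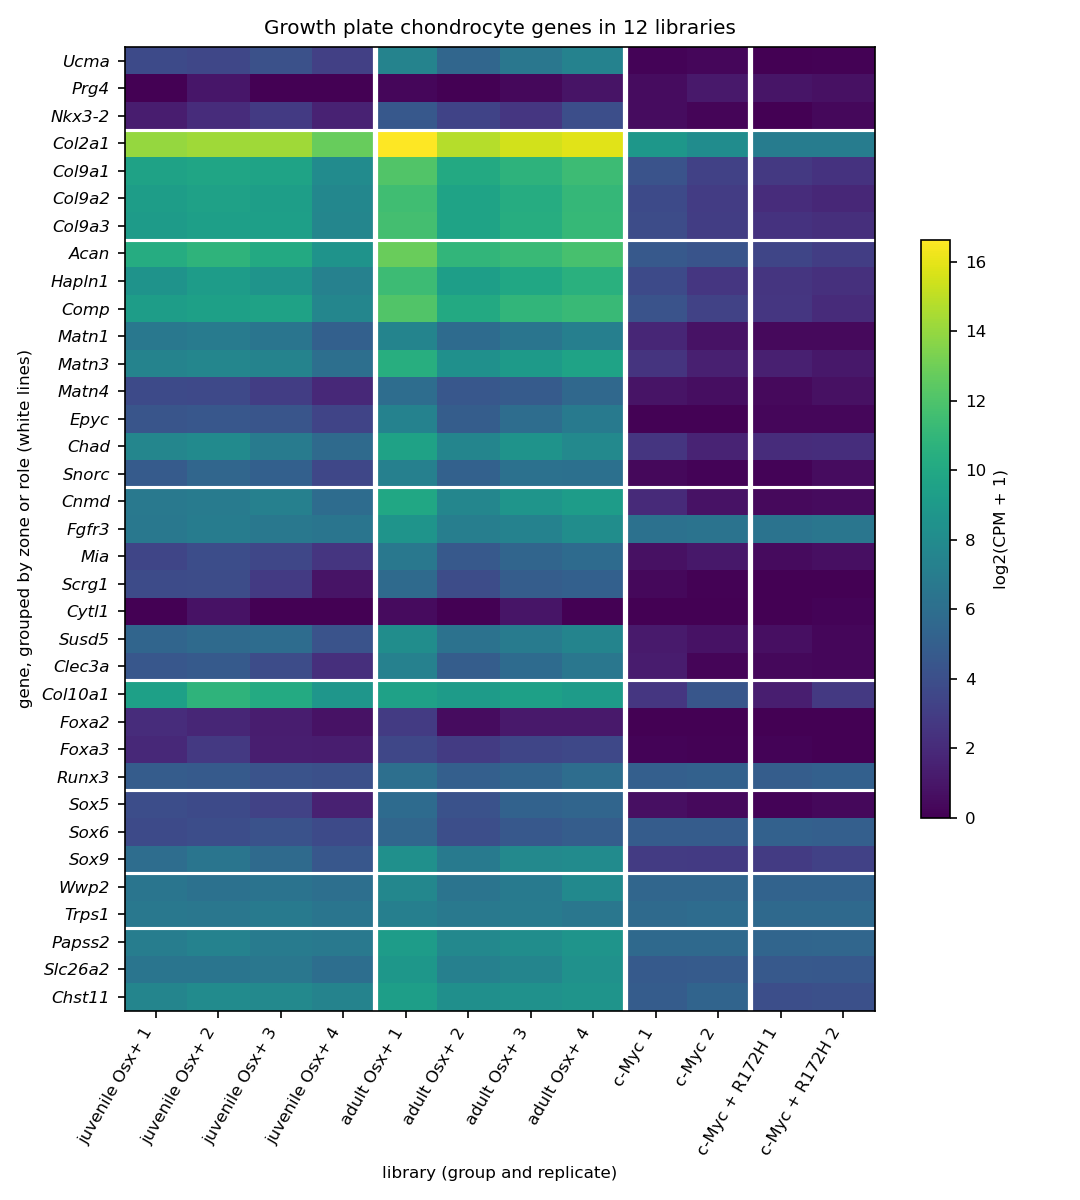
Levels of the 35 genes (rows, grouped by zone or role) in the 12 libraries (columns), as log2(CPM + 1) by colour. The 4 adult libraries are the brightest for most rows and the 4 induced libraries the darkest. In the induced libraries *Col2a1* is still the brightest row, at 125 to 451 CPM. *Fgfr3*, *Runx3*, *Sox6*, *Wwp2*, *Trps1*, *Papss2*, *Slc26a2* and *Chst11* also keep a visible level in all 12.

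*Col2a1*, the gene of type II collagen, led the order of levels per kilobase of exon in both ages, at 1687 CPM per kb in juvenile and 6353 CPM per kb in adult osteoblasts. In juvenile osteoblasts *Col10a1* came second (323 CPM per kb), followed by *Comp* (191), *Col9a2* (177) and *Acan* (152). In adult osteoblasts *Comp* came second (838), followed by *Col9a2* (586) and *Acan* (515), and *Col10a1* came eleventh (203). These are levels, and they rest on the summed exon length of each gene in the GENCODE annotation of GRCm38.

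The members' own promoters were examined for the binding cores of the SOX and RUNX families. RefSeq (GRCm38.p6) gave windows from 250 bases before to 50 bases after a start for 25 of the 35 genes, 38 starts in all. The SOX core ACAAAG, on either strand, was in 21.1% of the members' windows and in 18.7% of all 32851 windows of that length. ACAATG was in 13.2% of the members' windows and in 12.6% of all windows, and the RUNX core TGTGGT in 23.7% and 16.8%. ACAAAG and ACAATG differ at one base, so no position matches both, and a match is a description of letters only. Windows of 3 members are shown because they stand for the genes that moved together in these libraries (*Acan* and *Col9a2*) and for one whose log2 fold change with age had the opposite sign (*Col10a1*). All lie on the plus strand, at chr7:79052976-79053275, chr4:121039316-121039615 and chr10:34389731-34390030, and capitals mark a match to one of the 3 motifs.
*Acan*: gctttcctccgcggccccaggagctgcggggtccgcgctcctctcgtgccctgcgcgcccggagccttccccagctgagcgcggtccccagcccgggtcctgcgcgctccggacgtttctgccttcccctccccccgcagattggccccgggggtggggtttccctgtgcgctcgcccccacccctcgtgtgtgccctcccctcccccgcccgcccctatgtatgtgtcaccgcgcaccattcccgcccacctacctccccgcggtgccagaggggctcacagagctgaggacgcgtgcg
*Col9a2*: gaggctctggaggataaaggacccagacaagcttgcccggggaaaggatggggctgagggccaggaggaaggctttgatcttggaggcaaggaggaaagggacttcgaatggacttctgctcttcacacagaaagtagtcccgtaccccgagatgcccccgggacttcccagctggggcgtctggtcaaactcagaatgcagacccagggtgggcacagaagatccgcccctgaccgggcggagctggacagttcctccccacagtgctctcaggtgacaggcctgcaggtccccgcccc
*Col10a1*: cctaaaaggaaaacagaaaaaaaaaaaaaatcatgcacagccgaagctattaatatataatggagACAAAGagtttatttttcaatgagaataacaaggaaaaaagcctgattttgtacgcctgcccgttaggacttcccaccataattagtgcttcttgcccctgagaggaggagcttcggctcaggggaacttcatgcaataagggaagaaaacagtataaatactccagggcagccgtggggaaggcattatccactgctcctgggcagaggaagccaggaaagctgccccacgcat
The *Acan* and *Col9a2* windows hold none of the 3 motifs, and the *Col10a1* window holds 1 ACAAAG.

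The comparison of ages asks how juvenile metaphyseal osteoblasts differ from adult ones. With juvenile set over adult *Osx*+ osteoblasts, part of the cartilage genes was lower: 11 of the 33 tested members fell and none rose, by edgeR's quasi-likelihood test at an adjusted p below 0.05. At an unadjusted p below 0.05, 28 members were lower and 0 higher (10.6% and 9.06% of all genes tested). DESeq2 called 26 members lower and 0 higher, against 628 and 372 of all 11345 genes. By edgeR's test, 3.23% of these 11345 genes were called lower and 1.89% higher. The log2 fold change was below 0 for 32 of the 33, with a median of -1.86 against 0.00093 over all genes tested. For 24 of the 35 genes every juvenile library was below every adult library, and for the other 11 the groups overlapped. Of all genes tested, 6.75% had every juvenile library below every adult library and 6.17% above. The type X collagen gene *Col10a1*, mark of hypertrophic cells, was the only tested member with a log2 fold change above 0. With scaling by library totals instead of TMM, 6.27% of all called genes were higher in juvenile osteoblasts, against 36.8% with TMM, the median of all genes moved to -0.24, and 9 members were called lower. The adult libraries differed widely among themselves. Over the 8 fits that each left out one library, the call held in 8 for *Runx3*, 6 for *Ucma*, 5 for *Papss2* and *Chst11*, 3 for *Nkx3-2*, *Col2a1*, *Matn4* and *Slc26a2*, 2 for *Mia* and *Foxa3* and 1 for *Sox6*. The count of members called lower ran from 1, without juvenile library 1, to 19, without adult library 2. It was 2 without adult library 4, 7 without adult library 1, 7 without juvenile library 4, 4 without juvenile library 2 and 4 without juvenile library 3. Of all genes, 200 were called lower without juvenile library 1 and 541 without adult library 2.

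**Figure D2:**
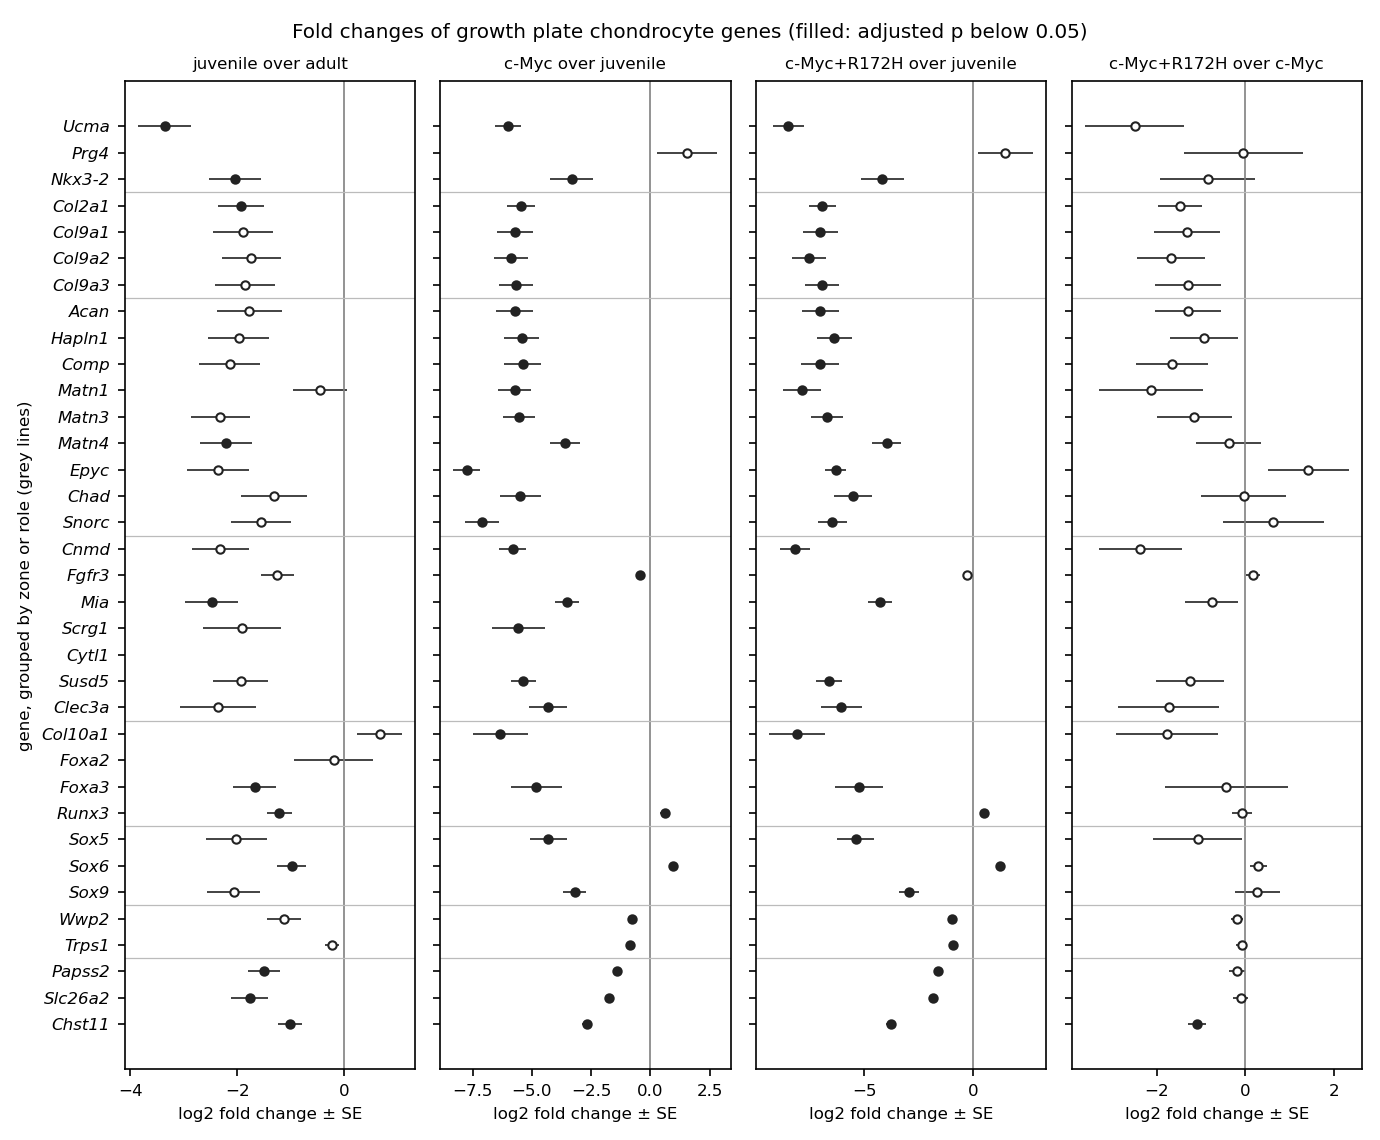
Log2 fold change with its SE (x axis) for each tested member (rows, grouped by zone or role) in 4 comparisons (panels), with filled points for adjusted p below 0.05. Members with no count in a compared group are left out. In the 2 panels against juvenile osteoblasts most points lie between -4 and -8, while *Fgfr3*, *Runx3*, *Sox6*, *Wwp2* and *Trps1* stay near 0. With library totals *Fgfr3* and *Wwp2* turn above 0 in both panels and *Trps1* in the *c-Myc* + *R172H* panel.

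Of the resting and superficial zone genes, *Ucma* and *Nkx3-2* fell and *Prg4* was too low to test. *Ucma* encodes a secreted matrix protein of upper growth plate cartilage (chromosome 2, 4976122 to 4985748). *Ucma* had 12.1, 10.4, 16.8 and 7.95 CPM in juvenile libraries 1 to 4 and 173, 44.6, 93.9 and 167 CPM in adult libraries 1 to 4. No juvenile library reached the lowest adult one, and the log2 fold change was -3.36 (SE 0.50, edgeR adjusted p = 0.0155), or 10.2-fold lower, the largest difference of any member with age. *Nkx3-2* had 1.55, 3.30, 6.12 and 1.99 CPM in juvenile libraries 1 to 4 and 22.7, 9.03, 5.17 and 15.1 CPM in adult libraries 1 to 4. This gene, a repressor that keeps chondrocytes immature, had a log2 fold change of -2.05 (SE 0.49, edgeR adjusted p = 0.0278), although juvenile library 3 lay above adult library 3. *Prg4* encodes lubricin of the joint surface. It reached at most 1.03 CPM in any reporter library.

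Among the cartilage collagens, *Col2a1* fell and the 3 genes of type IX collagen did not pass the test. *Col2a1* lies on chromosome 15 from 97975602 to 98004695. The levels of *Col2a1* were 16450, 19300, 19570 and 7038 CPM in juvenile libraries 1 to 4 and 101200, 27800, 45330 and 60520 CPM in adult libraries 1 to 4. The groups did not overlap, and the log2 fold change was -1.93 (SE 0.43, edgeR adjusted p = 0.035), that is 3.80-fold lower in juvenile osteoblasts. Type IX collagen sits on the surface of type II fibrils and is built of 3 chains. *Col9a1* had 764, 868, 807 and 253 CPM in juvenile libraries 1 to 4 and 4344, 1075, 1745 and 2740 CPM in adult libraries 1 to 4. *Col9a2* had 613, 728, 647 and 207 CPM in juvenile libraries 1 to 4 and 2997, 787, 1282 and 2184 CPM in adult libraries 1 to 4. The levels of *Col9a3* were 551, 675, 672 and 197 CPM in juvenile libraries 1 to 4 and 3169, 809, 1286 and 2275 CPM in adult libraries 1 to 4. Every juvenile library lay below every adult library for all 3, and in each case juvenile library 4 was lowest and adult library 1 highest. Their log2 fold changes were -1.89, -1.74 and -1.86 (SE 0.55 to 0.56), close to that of *Col2a1*, with edgeR adjusted p between 0.117 and 0.14.

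For the aggrecan aggregate and 3 other matrix genes, juvenile library 4 was again lowest and adult library 1 highest. *Acan* had 1239, 1813, 1117 and 379 CPM in juvenile libraries 1 to 4 and 7368, 1965, 2509 and 3548 CPM in adult libraries 1 to 4. *Hapln1* had 379.6, 574, 383 and 157 CPM in juvenile libraries 1 to 4 and 2730, 628, 978 and 1485 CPM in adult libraries 1 to 4. *Acan* encodes aggrecan, the large proteoglycan that holds water in cartilage, and *Hapln1* the link protein that fixes it to hyaluronan. Their log2 fold changes were -1.77 (SE 0.60, edgeR adjusted p = 0.167) and -1.98 (SE 0.58, edgeR adjusted p = 0.112). The levels of *Comp* were 621, 701, 749 and 199 CPM in juvenile libraries 1 to 4 and 4434, 1112, 1967 and 2435 CPM in adult libraries 1 to 4. *Matn3* had 173, 202, 174 and 65.3 CPM in juvenile libraries 1 to 4 and 1373, 318, 538 and 799 CPM in adult libraries 1 to 4. COMP and matrilin-3 connect the collagen fibrils of the matrix, and neither gene passed the test (-2.14, SE 0.57, edgeR adjusted p = 0.0897 and -2.31, SE 0.56, edgeR adjusted p = 0.0687). *Matn4* had 12.2, 11.4, 7.09 and 2.73 CPM in juvenile libraries 1 to 4 and 59.3, 21.7, 26.2 and 48.8 CPM in adult libraries 1 to 4. The gene of matrilin-4 did pass it, with a log2 fold change of -2.21 (SE 0.49, edgeR adjusted p = 0.0404).

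*Matn1*, the gene of matrilin-1, was an exception among the matrix genes. The levels of *Matn1* were 101, 122, 87.6 and 32.8 CPM in juvenile libraries 1 to 4 and 181, 54.95, 86.8 and 143 CPM in adult libraries 1 to 4. The groups overlapped almost fully, and the log2 fold change was -0.45 (SE 0.51, edgeR adjusted p = 0.715). *Chad* had 196, 249.8, 121 and 53.4 CPM in juvenile libraries 1 to 4 and 748, 188, 364 and 229 CPM in adult libraries 1 to 4. *Snorc* had 26.1, 43.5, 33.4 and 10.8 CPM in juvenile libraries 1 to 4 and 151, 35.4, 74.2 and 69.7 CPM in adult libraries 1 to 4. Chondroadherin, from *Chad*, binds cells to the matrix, and *Snorc* encodes a small membrane proteoglycan of cartilage. The ages overlapped for both genes (-1.31, SE 0.62 and -1.55, SE 0.56, with edgeR adjusted p of 0.319 and 0.191). The levels of *Epyc* were 19.4, 21.8, 20.02 and 9.69 CPM in juvenile libraries 1 to 4 and 161, 28.9, 61.4 and 109.6 CPM in adult libraries 1 to 4. *Epyc*, for the small proteoglycan epiphycan, had no overlap between the ages but missed the threshold (-2.36, SE 0.57, edgeR adjusted p = 0.0701).

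Of the secreted and surface proteins of proliferating cells, only *Mia* passed the test. *Mia* had 9.95, 14.2, 10.4 and 4.97 CPM in juvenile libraries 1 to 4 and 99.2, 23.5, 41.4 and 55.6 CPM in adult libraries 1 to 4. MIA is a small secreted protein made by chondrocytes, and its log2 fold change was -2.48 (SE 0.50, edgeR adjusted p = 0.0343). *Cnmd* had 104, 121, 147 and 56.8 CPM in juvenile libraries 1 to 4 and 945, 199, 399 and 577 CPM in adult libraries 1 to 4. The levels of *Fgfr3* were 101, 123, 98.9 and 86.4 CPM in juvenile libraries 1 to 4 and 384, 138, 164 and 278 CPM in adult libraries 1 to 4. *Cnmd* encodes chondromodulin, an inhibitor of vessel growth, and *Fgfr3* the receptor that restrains chondrocyte division. The ages did not overlap for either gene, and the log2 fold changes of -2.32 (SE 0.54) and -1.25 (SE 0.32) shared an edgeR adjusted p of 0.0631. *Susd5* had 42.8, 53.9, 56.6 and 18.5 CPM in juvenile libraries 1 to 4 and 277, 75.5, 118 and 180.0 CPM in adult libraries 1 to 4. *Clec3a* had 22.1, 25.5, 13.6 and 3.73 CPM in juvenile libraries 1 to 4 and 155, 29.1, 54.3 and 94.8 CPM in adult libraries 1 to 4. The levels of *Scrg1* were 13.2, 13.8, 5.98 and 0.869 CPM in juvenile libraries 1 to 4 and 52.8, 13.9, 28.7 and 33.5 CPM in adult libraries 1 to 4. These 3 less studied cartilage genes had log2 fold changes of -1.93 (SE 0.51), -2.36 (SE 0.71) and -1.91 (SE 0.73), with edgeR adjusted p of 0.0894, 0.122 and 0.211. *Cytl1*, a secreted cytokine-like protein, stayed at or below 0.905 CPM and was not tested.

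The prehypertrophic and hypertrophic genes did not move together. *Col10a1* lies on chromosome 10 from 34389981 to 34397085. *Col10a1* had 703, 1785, 1141 and 419 CPM in juvenile libraries 1 to 4 and 747, 552, 685 and 559.8 CPM in adult libraries 1 to 4. The juvenile libraries spanned the adult range on both sides, and the log2 fold change was 0.66 (SE 0.42, edgeR adjusted p = 0.462). *Foxa3* had 2.83, 5.88, 1.67 and 1.49 CPM in juvenile libraries 1 to 4 and 10.4, 6.32, 9.96 and 11.4 CPM in adult libraries 1 to 4. FOXA3 acts with FOXA2 in hypertrophic chondrocytes, and its gene was lower in juvenile osteoblasts by 1.67 on the log2 scale (SE 0.40, edgeR adjusted p = 0.024). *Foxa2* stayed between 0.451 and 6.48 CPM over the 8 libraries, with a log2 fold change of -0.20 (SE 0.74, edgeR adjusted p = 0.93). The levels of *Runx3* were 27.3, 24.9, 18.4 and 15.7 CPM in juvenile libraries 1 to 4 and 65.3, 32.05, 40.4 and 61.9 CPM in adult libraries 1 to 4. RUNX3 promotes chondrocyte maturation, and *Runx3* fell by 1.22 on the log2 scale (SE 0.23, edgeR adjusted p = 0.00892), with no overlap between the ages. It was called in 14 of 15 alternative fits, the most of any member.

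**Figure D3:**
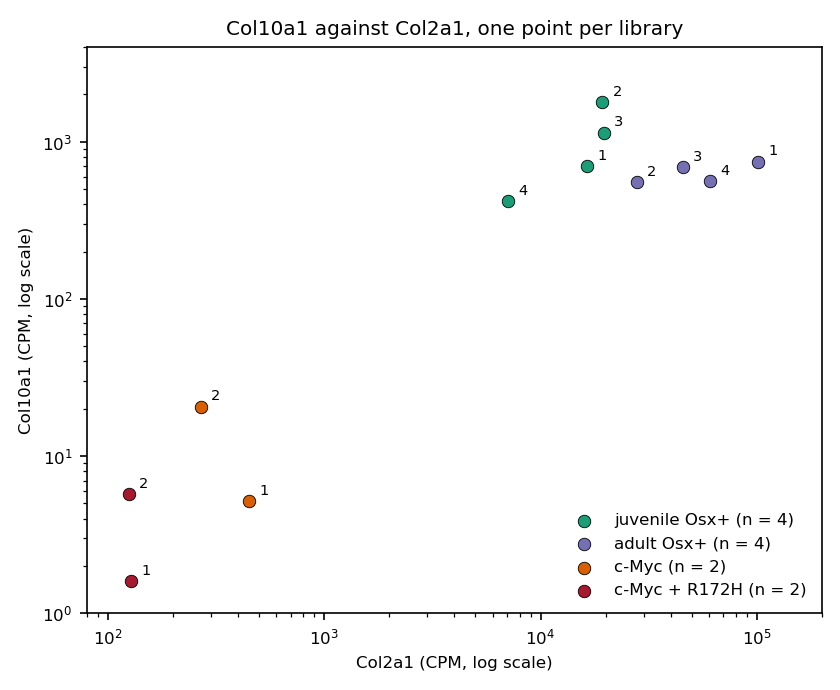
*Col10a1* (y axis) against *Col2a1* (x axis), both in CPM on log scales, with one point per library numbered by replicate. The adult points lie to the right of the juvenile points, at *Col10a1* levels of 552 to 747 CPM that fall inside the juvenile range of 419 to 1785 CPM, and the 4 induced points lie far below and to the left of both.

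Of the SOX factors, *Sox6* fell, and *Sox5* and *Sox9* did not pass the test despite larger fold changes. *Sox9* had 61.4, 86.96, 51.7 and 21.98 CPM in juvenile libraries 1 to 4 and 331, 113, 223 and 258 CPM in adult libraries 1 to 4. *Sox5* had 14.2, 12.5, 8.76 and 1.86 CPM in juvenile libraries 1 to 4 and 54.8, 17.5, 36.5 and 42.6 CPM in adult libraries 1 to 4. The ages did not overlap for either gene, with log2 fold changes of -2.07 (SE 0.49, edgeR adjusted p = 0.0661) and -2.01 (SE 0.57, edgeR adjusted p = 0.0962). The levels of *Sox6* were 12.1, 14.3, 17.5 and 12.2 CPM in juvenile libraries 1 to 4 and 43.5, 14.7, 22.5 and 28.98 CPM in adult libraries 1 to 4. For *Sox6* juvenile library 3 lay above adult library 2, and the log2 fold change was -0.98 (SE 0.27, edgeR adjusted p = 0.0481). The call held when adult library 2 was left out and was lost without any other single library (edgeR adjusted p from 0.0555 to 0.168). *Wwp2* had 85.7, 71.5, 78.7 and 65.8 CPM in juvenile libraries 1 to 4 and 210.2, 84.4, 116 and 241 CPM in adult libraries 1 to 4. *Trps1* had 101, 95.2, 109 and 86.7 CPM in juvenile libraries 1 to 4 and 142, 103, 118 and 96.2 CPM in adult libraries 1 to 4. WWP2 is a ubiquitin ligase whose gene holds the cartilage microRNA gene *Mir140*, and TRPS1 is a zinc finger repressor. The log2 fold changes were -1.12 (SE 0.32, edgeR adjusted p = 0.0882) for *Wwp2* and -0.24 (SE 0.13, edgeR adjusted p = 0.36) for *Trps1*, which differed least between the ages after *Foxa2*.

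All 3 sulphation genes fell. The levels of *Slc26a2* were 86.1, 88.7, 94.5 and 63.1 CPM in juvenile libraries 1 to 4 and 444, 153, 189.7 and 338 CPM in adult libraries 1 to 4. *Papss2* had 134, 167, 121 and 102 CPM in juvenile libraries 1 to 4 and 582, 219, 280.5 and 389 CPM in adult libraries 1 to 4. *Chst11* had 187, 259, 229 and 174 CPM in juvenile libraries 1 to 4 and 652, 309.6, 339 and 397 CPM in adult libraries 1 to 4. SLC26A2 carries sulphate into the cell, PAPSS2 turns it into the active donor, and CHST11 adds it to chondroitin chains. No juvenile library reached an adult one for any of them. The log2 fold changes were -1.77 (SE 0.35, edgeR adjusted p = 0.0287), -1.50 (SE 0.30, edgeR adjusted p = 0.024) and -1.01 (SE 0.22, edgeR adjusted p = 0.0228). All 3 calls were lost without juvenile library 1 and without adult library 4, those of *Slc26a2* and *Papss2* without juvenile library 3, those of *Slc26a2* and *Chst11* without juvenile library 4, and that of *Slc26a2* without juvenile library 2.

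The lowest juvenile library and the highest and lowest adult libraries were the same for most members. Of the 31 members with at least 10 counts in every reporter library, juvenile library 4 was the lowest juvenile library for 29 (not *Nkx3-2* and *Sox6*). The highest juvenile library varied more: it was library 2 for 18, library 3 for 9 and library 1 for 4. Adult library 1 was the highest adult library for 29 (not *Foxa3* and *Wwp2*) and adult library 2 the lowest for 29 (not *Nkx3-2* and *Trps1*). *Col2a1* ran from 7038 CPM in juvenile library 4 to 101200 CPM in adult library 1. The share of all genes with these libraries at the extremes was not counted. Without adult libraries 1 and 4 together, 6 members were called lower and the median over members was -1.07, a setting chosen after seeing the data.

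To compare make-up rather than amount, each member was expressed per 1000 *Col2a1* counts of its own library. Of 30 members so compared, 13 stayed within a 2-fold range over all 8 reporter libraries, 17 within 3-fold and 25 within 4-fold. The share of all genes within these ranges was not counted. *Susd5* was the steadiest, between 2.61 and 2.97 per 1000 *Col2a1* counts while its own level ranged over 15.0-fold. The type IX collagen genes stayed within 1.29-fold (*Col9a1*), 1.33-fold (*Col9a2*) and 1.34-fold (*Col9a3*), *Comp* within 1.55-fold and *Acan* within 1.74-fold. At the other end was *Col10a1*, with 42.7, 92.5, 58.3 and 59.5 per 1000 in juvenile libraries 1 to 4 and 7.38, 19.9, 15.1 and 9.25 in adult libraries 1 to 4. All juvenile values exceeded all adult ones, with a ratio of group means on the log scale of 5.09-fold. *Trps1* was 3.14-fold and *Matn1* 2.67-fold higher relative to *Col2a1* in juvenile libraries, whereas *Ucma* was lower, at 0.82 against 2.04 per 1000 on average. *Col2a1*, the divisor, was itself 3.80-fold lower in juvenile osteoblasts, so any gene that changed less rises on this ratio. The levels themselves had log2 fold changes of -0.24 (*Trps1*), -0.45 (*Matn1*), -0.98 (*Sox6*), -1.01 (*Chst11*) and -1.25 (*Fgfr3*), beside -1.93 for *Col2a1*. In a two-sided exact permutation test of 4 against 4 libraries, 10 of the 30 members reached the smallest p that this design allows (0.0286): *Col10a1*, *Trps1*, *Matn1*, *Sox6*, *Chst11* and *Fgfr3*, higher in juvenile libraries, and *Ucma*, *Mia*, *Matn3* and *Comp*, lower. After Benjamini-Hochberg adjustment of this permutation test over the 30 members, these 10 had an adjusted p of 0.0857, so none passed 0.05. The share of all genes that would reach the smallest p was not counted, so these 10 are not shown to stand apart from other genes.

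**Figure D4:**
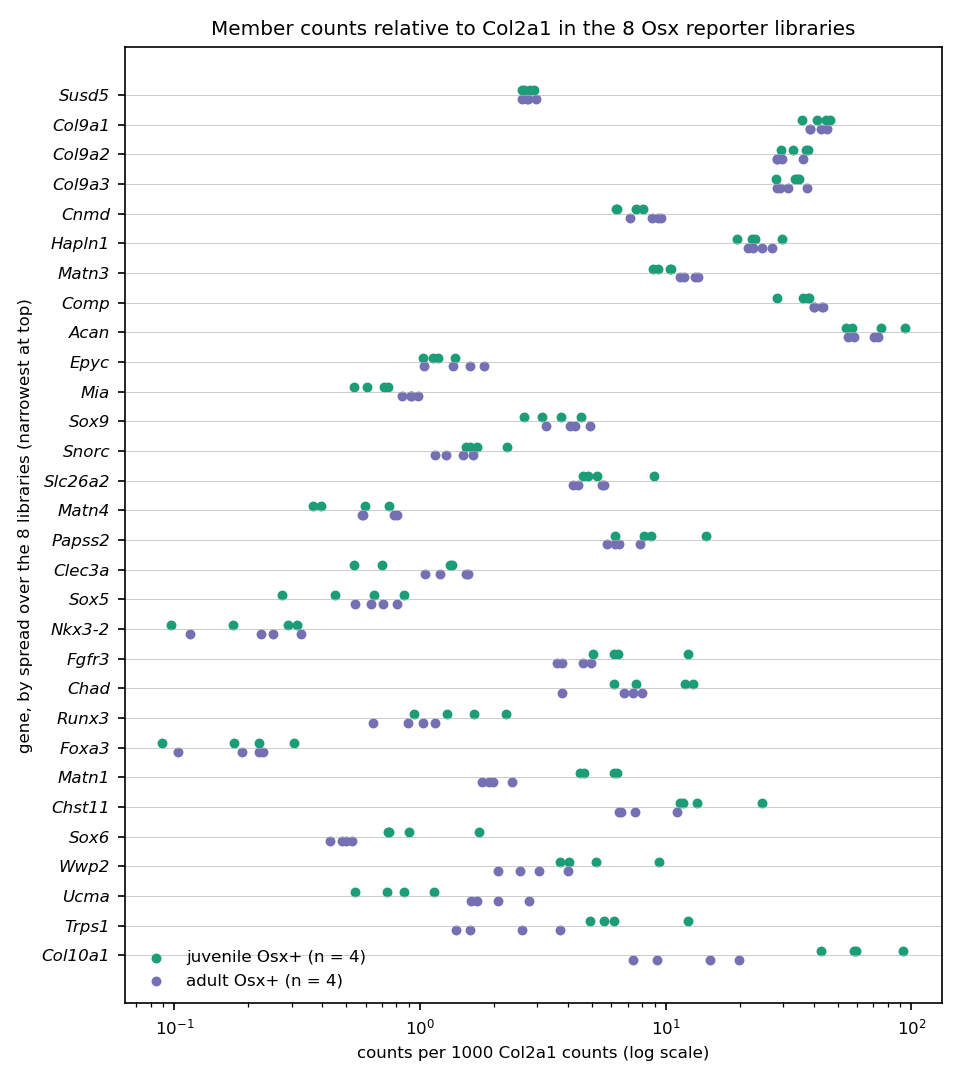
Counts of 30 members per 1000 *Col2a1* counts (x axis, log scale) in the 4 juvenile and 4 adult *Osx*+ libraries, 1 point per library, with genes ordered from the narrowest spread (top) to the widest. Matrix genes such as *Susd5* and *Col9a1* form tight columns at both ages, whereas the juvenile points of *Col10a1* (42.7 to 92.5) lie to the right of all adult points (7.38 to 19.9).

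Other cartilage genes outside the 35 were also looked up. Of 9 tested among 12, *S100b*, a calcium-binding protein of chondrocytes, was called lower in juvenile osteoblasts (-1.40, SE 0.25, edgeR adjusted p = 0.00521) and none was called higher, with a median of -0.47. *Ihh*, the hedgehog ligand that prehypertrophic chondrocytes send to their neighbours, had 21.8, 39.6, 11.96 and 3.97 CPM in juvenile libraries 1 to 4 and 54.9, 13.1, 15.00 and 26.9 CPM in adult libraries 1 to 4. These ranges overlapped (-0.51, SE 0.75, edgeR adjusted p = 0.788). Of 11 genes that hypertrophic chondrocytes share with osteoblasts, *Spp1* (osteopontin, 1.23, SE 0.16, edgeR adjusted p = 0.000662) and *Sp7* (0.43, SE 0.12, edgeR adjusted p = 0.04996) were higher in juvenile osteoblasts and none was lower, with a median of 0.34. The chondroitin sulphate chain genes gave 4 lower and 1 higher of 20 tested, with a median of -0.02. *Csgalnact1*, which starts the chain, was lower (-1.996, SE 0.35, edgeR adjusted p = 0.00815) and *Chst13*, a sulphotransferase, higher (0.81, SE 0.18, edgeR adjusted p = 0.016).

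The comparison of *c-Myc*-induced with juvenile *Osx*+ osteoblasts asks what c-Myc changes in these cells. Most cartilage genes were at a few percent of their juvenile level or less in the *c-Myc* libraries. Of 34 tested members 31 fell and 2 rose, by edgeR's quasi-likelihood test at an adjusted p below 0.05, and *Prg4* did not pass (1.55, SE 1.28, edgeR adjusted p = 0.33; without juvenile library 2 it was called higher with 0.456 and 1.19 CPM, when the other juvenile libraries had none). Of all 12588 genes tested 25% were called lower and 28.4% higher. The median log2 fold change of the members was -5.38 against 0.037 over all genes tested, or -5.09 with *Foxa2*, which had no count in either library, set at its bound. Both *c-Myc* libraries lay below all 4 juvenile libraries for 31 members and above them for *Runx3* and *Sox6*. Of all genes tested, 28.8% lay below and 35.7% above all juvenile libraries in this way. With scaling by library totals instead of TMM, the median of all genes moved to 0.87, 85.9% of called genes were higher against 53.2% with TMM, and 28 members were lower and 2 higher. The osteoblast list itself fell in this comparison, with 10 of 10 tested genes called lower and a median of -1.99 beside -5.38 for the members.

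*Col2a1* kept 451 and 269 CPM in *c-Myc* libraries 1 and 2, against 7038 to 19570 CPM in juvenile osteoblasts, a log2 fold change of -5.46 (SE 0.58, edgeR adjusted p = 0.000271). *Col9a1* was at 18.03 and 8.16 CPM in *c-Myc* libraries 1 and 2 and at 253 to 868 CPM in juvenile ones. *Col9a2* had 12.1 and 6.86 CPM in *c-Myc* libraries 1 and 2, against 207 to 728 CPM in juvenile libraries. *Col9a3* was at 13.7 and 7.03 CPM in *c-Myc* libraries 1 and 2 and at 197 to 675 CPM in juvenile ones. Their log2 fold changes lay between -5.67 and -5.87, so type IX collagen fell by about as much as type II. *Acan* had 24.3 and 19.3 CPM in *c-Myc* libraries 1 and 2, against 379 to 1813 CPM in juvenile libraries. *Hapln1* was at 12.2 and 5.10 CPM in *c-Myc* libraries 1 and 2 and at 157 to 574 CPM in juvenile ones. *Comp* had 18.4 and 8.84 CPM in *c-Myc* libraries 1 and 2, against 199 to 749 CPM in juvenile libraries. Aggrecan, link protein and COMP genes followed, with log2 fold changes of -5.73 (SE 0.79), -5.44 (SE 0.74) and -5.40 (SE 0.78) and edgeR adjusted p from 0.00122 to 0.00181.

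Further matrix genes were left at under 5 CPM. *Matn1* was at 2.42 and 0.737 CPM in *c-Myc* libraries 1 and 2 and at 32.8 to 122 CPM in juvenile ones. *Matn3* had 4.75 and 1.70 CPM in *c-Myc* libraries 1 and 2, against 65.3 to 202 CPM in juvenile libraries. *Matn4* was at 0.822 and 0.567 CPM in *c-Myc* libraries 1 and 2 and at 2.73 to 12.2 CPM in juvenile ones. The matrilin genes had log2 fold changes of -5.73, -5.56 and -3.60 (SE 0.64 to 0.71, edgeR adjusted p from 0.000258 to 0.000447). *Chad* had 4.79 and 2.10 CPM in *c-Myc* libraries 1 and 2, against 53.4 to 249.8 CPM in juvenile libraries. *Snorc* was at 0.274 and 0.113 CPM in *c-Myc* libraries 1 and 2 and at 10.8 to 43.5 CPM in juvenile ones. *Chad* fell by 5.49 and *Snorc* by 7.11 on the log2 scale, with edgeR adjusted p of 0.0024 and 3.99e-06. *Epyc* had 3 counts in the 2 libraries together, 237-fold lower than in juvenile osteoblasts with an exact 95% counting interval of 80.9 to 1154.

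The secreted and surface genes fell by unequal amounts. *Cnmd* had 2.97 and 0.737 CPM in *c-Myc* libraries 1 and 2, against 56.8 to 147 CPM in juvenile libraries. *Mia* was at 0.685 and 1.08 CPM in *c-Myc* libraries 1 and 2 and at 4.97 to 14.2 CPM in juvenile ones. *Susd5* had 1.32 and 0.737 CPM in *c-Myc* libraries 1 and 2, against 18.5 to 56.6 CPM in juvenile libraries. The log2 fold changes were -5.81 for *Cnmd*, -3.52 for *Mia* and -5.36 for *Susd5*, with edgeR adjusted p of 3.01e-05, 7.49e-05 and 2.83e-06. *Clec3a* was at 1.42 and 0.170 CPM in *c-Myc* libraries 1 and 2 and at 3.73 to 25.5 CPM in juvenile ones. *Scrg1* had 0.274 and 0.0567 CPM in *c-Myc* libraries 1 and 2, against 0.869 to 13.8 CPM in juvenile libraries. *Clec3a* and *Scrg1* fell by 4.32 and 5.58 on the log2 scale (edgeR adjusted p = 0.000768 and 0.00129). *Fgfr3* was at 73.7 and 79.3 CPM in *c-Myc* libraries 1 and 2 and at 86.4 to 123 CPM in juvenile ones. *Fgfr3* lay just under the juvenile libraries, with a log2 fold change of -0.44 (SE 0.14, edgeR adjusted p = 0.0146) that turned to 0.38 with library totals and was not called without *c-Myc* library 1 (edgeR adjusted p = 0.116). *Ucma* had 0.137 and 0.227 CPM in *c-Myc* libraries 1 and 2, against 7.95 to 16.8 CPM in juvenile libraries. *Nkx3-2* was at 0.456 and 0.170 CPM in *c-Myc* libraries 1 and 2 and at 1.55 to 6.12 CPM in juvenile ones. These resting zone genes had log2 fold changes of -6.003 and -3.31 (edgeR adjusted p = 2.16e-06 and 0.00822).

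The hypertrophic genes fell, except *Runx3*. *Col10a1* had 5.16 and 20.6 CPM in *c-Myc* libraries 1 and 2, against 419 to 1785 CPM in juvenile libraries. *Col10a1* fell by 6.33 on the log2 scale (SE 1.15, edgeR adjusted p = 0.00566). The 2 *c-Myc* libraries were 4.00-fold apart here, in the opposite order to *Col2a1*. *Foxa2* had 0 counts in both libraries and was at least 13.2-fold lower than in juvenile osteoblasts, set against 3 counts per library. *Foxa3* was at 0.137 and 0.0567 CPM in *c-Myc* libraries 1 and 2 and at 1.49 to 5.88 CPM in juvenile ones. *Foxa3* fell by 4.82 on the log2 scale (SE 1.08, edgeR adjusted p = 0.00238). *Runx3* had 32.04 and 34.9 CPM in *c-Myc* libraries 1 and 2, against 15.7 to 27.3 CPM in juvenile libraries. *Runx3* was above every juvenile library and rose by a log2 fold change of 0.60 (SE 0.20, edgeR adjusted p = 0.0229), also with library totals. The adjusted p was 0.0669 without *c-Myc* library 1 and 0.134 without *c-Myc* library 2.

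The regulators split. *Sox9* was at 6.30 and 6.01 CPM in *c-Myc* libraries 1 and 2 and at 21.98 to 86.96 CPM in juvenile ones. *Sox5* had 0.593 and 0.340 CPM in *c-Myc* libraries 1 and 2, against 1.86 to 14.2 CPM in juvenile libraries. *Sox6* was at 27.5 and 27.5 CPM in *c-Myc* libraries 1 and 2 and at 12.1 to 17.5 CPM in juvenile ones. *Sox9* fell by 3.20 (SE 0.48) and *Sox5* by 4.31 (SE 0.77) on the log2 scale, whereas *Sox6* rose, with a log2 fold change of 0.96 (SE 0.17, edgeR adjusted p = 0.000361), in all 13 alternative fits. *Sox6* lies on chromosome 7 from 115470872 to 116038796, a long gene with no overlapping gene in the annotation. *Wwp2* had 44.8 and 44.2 CPM in *c-Myc* libraries 1 and 2, against 65.8 to 85.7 CPM in juvenile libraries. *Trps1* was at 52.03 and 58.4 CPM in *c-Myc* libraries 1 and 2 and at 86.7 to 109 CPM in juvenile ones. Both fell less than 2-fold, by 0.78 (SE 0.13) and 0.85 (SE 0.12) on the log2 scale, and with library totals they were at 0.04 and -0.02, neither called.

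The sulphation genes kept clear levels. *Papss2* had 49.7 and 50.9 CPM in *c-Myc* libraries 1 and 2, against 102 to 167 CPM in juvenile libraries. *Slc26a2* was at 24.6 and 26.2 CPM in *c-Myc* libraries 1 and 2 and at 63.1 to 94.5 CPM in juvenile ones. *Chst11* had 27.7 and 39.2 CPM in *c-Myc* libraries 1 and 2, against 174 to 259 CPM in juvenile libraries. The log2 fold changes were -1.41 (SE 0.17), -1.73 (SE 0.16) and -2.69 (SE 0.19), all called by edgeR (adjusted p = 1.64e-05, 2.1e-06 and 2.3e-07). Each of the 3 was called in all 13 alternative fits.

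**Figure D5:**
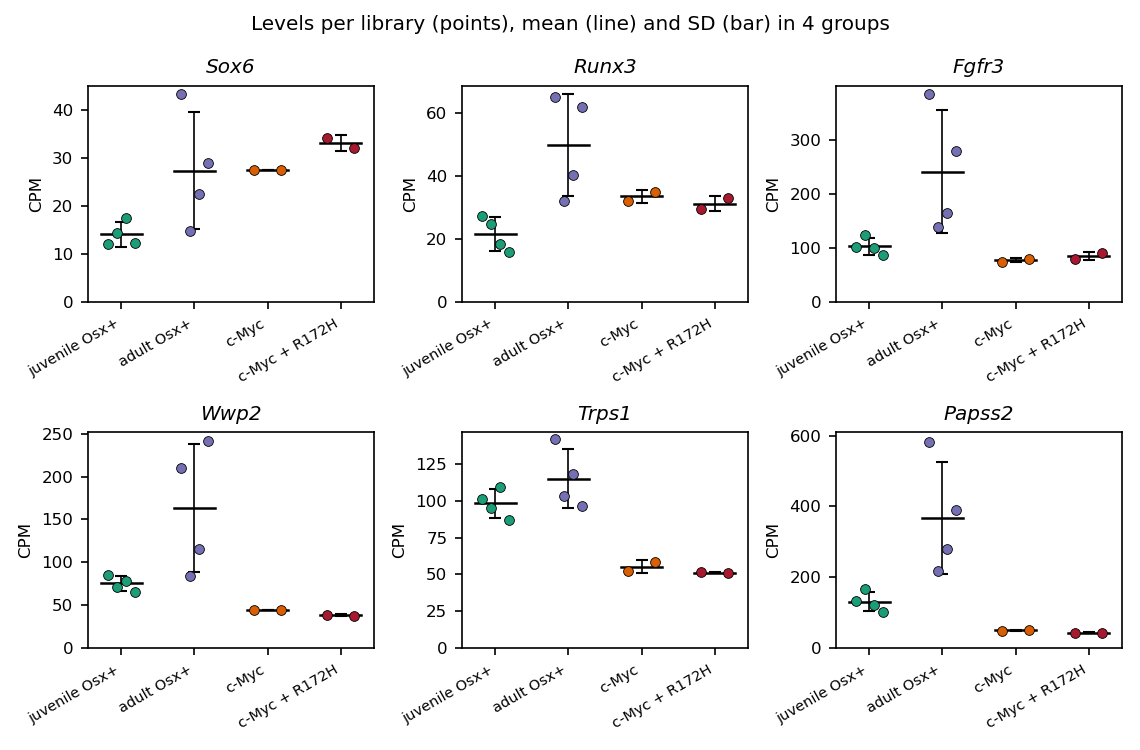
CPM of 6 members that kept clear levels in the induced osteoblasts, with 1 point per library, a line at the mean and a bar for the SD (4, 4, 2 and 2 libraries). *Sox6* and *Runx3* lie above all juvenile points in both induced groups, and *Wwp2*, *Trps1* and *Papss2* below them on this TMM scale. With library totals *Wwp2* turns above the juvenile level in both groups and *Trps1* in *c-Myc* + *R172H* osteoblasts.

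The comparison of *c-Myc* + *R172H* with juvenile osteoblasts shares the juvenile libraries with the one above, so its values are set beside it and are no separate test of the same change. Of 34 tested members 30 fell and 2 rose, against 26.3% of all 12588 genes called lower and 30.4% higher. The median of the members was -6.18 against 0.076 over all genes tested, or -5.71 with *Scrg1* and *Foxa2*, which had no count, set at their bounds. With library totals the median of all genes moved to 1.12, 86.8% of called genes were higher against 53.7% with TMM, and 28 members were lower and 3 higher. *Col2a1* had 128 and 125 CPM in libraries 1 and 2, a log2 fold change of -6.94 (SE 0.63, edgeR adjusted p = 0.000109). *Col9a1* was at 5.81 and 4.51 CPM in *c-Myc* + *R172H* libraries 1 and 2 and at 253 to 868 CPM in juvenile ones. *Col9a2* had 3.29 and 2.53 CPM in *c-Myc* + *R172H* libraries 1 and 2, against 207 to 728 CPM in juvenile libraries. *Col9a3* was at 4.53 and 3.82 CPM in *c-Myc* + *R172H* libraries 1 and 2 and at 197 to 675 CPM in juvenile ones. The 3 type IX collagen genes had log2 fold changes between -6.96 and -7.54. *Acan* had 10.2 and 7.19 CPM in *c-Myc* + *R172H* libraries 1 and 2, against 379 to 1813 CPM in juvenile libraries. *Hapln1* was at 5.03 and 3.92 CPM in *c-Myc* + *R172H* libraries 1 and 2 and at 157 to 574 CPM in juvenile ones. *Comp* had 5.31 and 3.17 CPM in *c-Myc* + *R172H* libraries 1 and 2, against 199 to 749 CPM in juvenile libraries. These fell by 7.02, 6.37 and 7.05 on the log2 scale (edgeR adjusted p from 0.000734 to 0.000815).

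Most of the other matrix and secreted genes were close to the detection limit in this group. *Chad* was at 3.29 and 3.42 CPM in *c-Myc* + *R172H* libraries 1 and 2 and at 53.4 to 249.8 CPM in juvenile ones. *Matn3* had 1.74 and 1.14 CPM in *c-Myc* + *R172H* libraries 1 and 2, against 65.3 to 202 CPM in juvenile libraries. *Chad* fell by 5.53 and *Matn3* by 6.71 on the log2 scale. *Matn1*, *Matn4*, *Epyc*, *Snorc*, *Cnmd*, *Mia*, *Susd5* and *Clec3a* lay between 0.137 and 0.694 CPM in both libraries, and all 8 were called lower. *Scrg1* had 0 counts and was at least 59.3-fold lower. *Ucma* had 1 count in the 2 libraries together, 490-fold lower with an exact 95% counting interval of 87.4 to 19380. *Nkx3-2*, with 0.0457 and 0.298 CPM, fell by 4.17 on the log2 scale (SE 0.98).

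*Col10a1* was at 1.60 and 5.75 CPM in *c-Myc* + *R172H* libraries 1 and 2 and at 419 to 1785 CPM in juvenile ones. *Col10a1* fell by 8.10 on the log2 scale (SE 1.28, edgeR adjusted p = 0.00298). *Foxa2* had 0 counts, at least 14.2-fold lower, and *Foxa3* 3 counts, 43.7-fold lower with an exact 95% counting interval of 14.6 to 215.

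The SOX factors and other regulators differed from one another. *Sox9* had 6.45 and 8.13 CPM in *c-Myc* + *R172H* libraries 1 and 2, against 21.98 to 86.96 CPM in juvenile libraries. *Sox5* was at 0.137 and 0.298 CPM in *c-Myc* + *R172H* libraries 1 and 2 and at 1.86 to 14.2 CPM in juvenile ones. *Sox6* had 34.3 and 32.04 CPM in *c-Myc* + *R172H* libraries 1 and 2, against 12.1 to 17.5 CPM in juvenile libraries. *Sox9* fell by 2.93 and *Sox5* by 5.39 on the log2 scale, and *Sox6* rose, with a log2 fold change of 1.25 (SE 0.16, edgeR adjusted p = 3.33e-05). *Runx3* was at 29.4 and 32.8 CPM in *c-Myc* + *R172H* libraries 1 and 2 and at 15.7 to 27.3 CPM in juvenile ones. *Runx3* rose by a log2 fold change of 0.53 (SE 0.20, edgeR adjusted p = 0.0397), called in 6 of 13 alternative fits, and not without juvenile library 3, without juvenile library 4 or without either *c-Myc* + *R172H* library. *Fgfr3* had 78.7 and 90.2 CPM in *c-Myc* + *R172H* libraries 1 and 2, against 86.4 to 123 CPM in juvenile libraries. *Fgfr3* did not pass the test (-0.27, SE 0.13, edgeR adjusted p = 0.104), and with library totals its log2 fold change was 0.76 (edgeR adjusted p = 0.00187). *Wwp2* was at 38.97 and 37.7 CPM in *c-Myc* + *R172H* libraries 1 and 2 and at 65.8 to 85.7 CPM in juvenile ones. *Trps1* had 51.4 and 50.99 CPM in *c-Myc* + *R172H* libraries 1 and 2, against 86.7 to 109 CPM in juvenile libraries. Both fell, by 0.97 (SE 0.13) and 0.93 (SE 0.12) on the log2 scale, and with library totals they were at 0.07 and 0.11, neither called.

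All 3 sulphation genes were lower. *Papss2* was at 42.7 and 43.9 CPM in *c-Myc* + *R172H* libraries 1 and 2 and at 102 to 167 CPM in juvenile ones. *Slc26a2* had 24.1 and 22.4 CPM in *c-Myc* + *R172H* libraries 1 and 2, against 63.1 to 94.5 CPM in juvenile libraries. *Chst11* was at 15.1 and 15.6 CPM in *c-Myc* + *R172H* libraries 1 and 2 and at 174 to 259 CPM in juvenile ones. The sulphation genes fell by 1.59, 1.83 and 3.78 on the log2 scale (SE 0.16 to 0.21).

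Relative to *Col2a1*, 7 matrix genes kept to a narrow range over all libraries. Of 18 members with at least 10 counts in all 12 libraries, these 7 stayed within a 3-fold range over all 12: *Col9a1*, *Col9a2*, *Col9a3*, *Hapln1*, *Matn3*, *Comp* and *Acan*. Of all 9380 genes besides *Col2a1* with that many counts 8 did so, these 7 and *Prelp*, a matrix protein gene named after its values were seen. *Chad*, also a matrix gene, ranged over 7.27-fold, from 3.79 to 12.9 per 1000 *Col2a1* counts in the reporter and 7.89 to 27.5 in the induced libraries. *Acan* was at 53.9 and 71.7 per 1000 *Col2a1* counts in the *c-Myc* libraries and at 79.8 and 57.6 in the *c-Myc* + *R172H* libraries, against 53.9 to 94.0 in the reporter libraries. For the 9 regulators, receptor and sulphation genes *Sox9*, *Sox6*, *Runx3*, *Fgfr3*, *Wwp2*, *Trps1*, *Papss2*, *Slc26a2* and *Chst11* every induced library exceeded every reporter library on this ratio. So did 99.8% of the 9380 genes, and *Col2a1*, the divisor, itself fell, so these 9 do not stand apart from other genes by it. *Col10a1* stayed inside its reporter range (7.38 to 92.5) but was uneven, at 11.5 and 76.7 in *c-Myc* libraries 1 and 2 and 12.7 and 46.1 in *c-Myc* + *R172H* libraries 1 and 2. Replicate 2 was the higher one in both groups and is also the library with *Xist* counts. The part of sex in this difference was not tested.

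Related genes outside the 35 were also lower. Of the 9 tested of 12 other cartilage genes, 8 were called lower in *c-Myc* and 8 in *c-Myc* + *R172H* osteoblasts, with medians of -2.58 and -3.51. *Col11a1*, a fibril collagen of cartilage and bone, went from 5085 to 6735 CPM in juvenile libraries to 631 and 790.3 CPM in the *c-Myc* and 237 and 243 CPM in the *c-Myc* + *R172H* libraries. *Ihh* had 3.65 and 5.67 CPM in the *c-Myc* libraries and 3.16 and 4.41 CPM in the *c-Myc* + *R172H* libraries, against 3.97 to 39.6 CPM in juvenile ones. The groups overlapped, with log2 fold changes of -2.10 (SE 0.74, edgeR adjusted p = 0.0391) and -2.36 (SE 0.76, edgeR adjusted p = 0.0244). The genes shared by hypertrophic chondrocytes and osteoblasts gave 9 of 11 called lower in each comparison, with medians of -1.08 and -1.13, and the chondroitin sulphate chain genes 17 of 21 in each, with medians of -0.89 and -1.17.

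The comparison of *c-Myc* + *R172H* with *c-Myc* osteoblasts asks what p53 inactivation adds. Of 34 tested members 1 was called lower, *Chst11*, and none higher, against 0.461% and 0.00794% of all 12588 genes. At an unadjusted p below 0.05, 4 members were lower and 0 higher (4.06% and 0.62% of all genes tested). DESeq2 also called 1 member lower and none higher, against 200 and 8 of all 12588 genes. The median log2 fold change of the members was -0.89 against -0.0028 over all genes tested, or -0.85 over 33 with *Scrg1* at its bound and *Foxa2*, at 0 counts in both, left out. It moved to -0.23 without *c-Myc* library 1. *Chst11* had 27.7 and 39.2 CPM in the *c-Myc* libraries and 15.1 and 15.6 CPM in the *c-Myc* + *R172H* libraries, a log2 fold change of -1.09 (SE 0.20, edgeR adjusted p = 0.0417). It lies on chromosome 10 from 82985498 to 83195900. The call was lost without *c-Myc* library 2 and without either *c-Myc* + *R172H* library, and adjusted p ranged from 1.55e-09 to 0.454 over 11 alternatives.

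For 19 members both *c-Myc* + *R172H* libraries lay below both *c-Myc* libraries, for *Epyc*, *Sox6* and *Sox9* above, and for 13 they overlapped. Of all genes tested 27.5% lay below and 17.5% above in this way. Some of these members rest on few counts. *Epyc* had 2 and 1 counts in the *c-Myc* and 5 and 4 in the *c-Myc* + *R172H* libraries. *Ucma*, among the 19, had 3 and 4 in the *c-Myc* and 0 and 1 in the *c-Myc* + *R172H* libraries. With 2 libraries a group the spread was wide. *Col2a1* had a log2 fold change of -1.48 (SE 0.51, edgeR adjusted p = 0.786), *Acan* of -1.29 (SE 0.75) and *Col10a1* of -1.77 (SE 1.16), both with an edgeR adjusted p of 1. The regulators were close, with log2 fold changes of 0.30 for *Sox6*, -0.07 for *Runx3*, 0.17 for *Fgfr3*, -0.18 for *Wwp2* and -0.08 for *Trps1*, and with library totals *Runx3*, *Wwp2* and *Trps1* turned to 0.14, 0.03 and 0.13. *Papss2* and *Slc26a2*, at -0.19 and -0.10, turned to 0.03 and 0.11 with library totals. Of the other cartilage genes *Col11a1* was called lower (-1.54, SE 0.13, edgeR adjusted p = 0.000897), and of the osteoblast markers 1 of 10 tested.

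The counting strand is not stated for these data, and 7 members overlap a gene on the opposite strand in the annotation: *Prg4* with *Tpr*, *Col9a3* with *Tcfl5*, *Matn4* with *Rbpjl*, *Epyc* with *Gm10754*, *Fgfr3* with *G630022F23Rik*, *Col10a1* with *Nt5dc1* and *Sox5* with *Sox5os1*. Their levels are uncertain to that extent. The overlap is 18 bases for *Col10a1* and 1330 for *Sox5*. On the same strand, *Mia* shares 410 of its 994 exon bases with *Gm21983*, *Wwp2* 70 bases with *Mir140* and *Trps1* 25 with *Mir1907*. Those levels are uncertain whatever the strand setting.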

How the data were processed

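RNA from sorted mGFP+ cells was read as 86-bp single ends from directional libraries (4 juvenile, 4 adult, 2 *c-Myc*-induced and 2 *c-Myc* + *R172H*). The authors trimmed with cutadapt 4.6, aligned with STAR 2.7.11a and deposited raw counts per gene from HTSeq 2.0.5 on mouse GRCm38 (mm10). The strand setting is not given in the sources used here. The depth was 9066154 to 15684412 counts per library. All genes of the table were fitted with edgeR 4.0.16 (R 4.3.3): filterByExpr, TMM factors, quasi-likelihood test, Benjamini-Hochberg adjustment over all genes tested, calls at 0.05. The ages were fitted in the 8 reporter libraries, and the induced comparisons in one fit of the juvenile and both induced groups, so the tests share an estimate of spread. DESeq2 1.42.0, other scalings and filters, and leaving out libraries were alternatives. Scripts were tested on simulated data. Ratios to *Col2a1*, with 0.5 added to each count, were tested by exact permutation (scipy 1.17.1), with intervals covering counting error only.

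The members and lists were chosen with earlier results of these data known. Every member could be named, those averaging at least 5 CPM in a group with the value in every library or the range, and other genes came from fixed lists. Coordinates of genes follow GENCODE (GRCm38), and promoter windows from RefSeq GRCm38.p6.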

Additional observations from a re-analysis of the deposited data

Results flagged for a closer look

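*Col9a1* had 253 CPM in juvenile library 4 and 764 to 868 CPM in the other juvenile libraries, a gap of 0.832 of the group's range, which is further from the others than Dixon's limit for 4 libraries allows. It was the only one of 62 groups of 4 libraries tested, over members averaging at least 5 CPM, and chance alone gives about 1 in 20. The same library was the lowest juvenile one for 29 of 31 members.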

How the results depend on the processing

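In both *c-Myc* + *R172H* libraries 5 members were at or under 3 counts, and in both *c-Myc* libraries 4. For the juvenile and for the adult group this held for 0 members, although their libraries had fewer total counts. All p-values rest on 2 to 4 libraries a group. Where a group keeps 1 library, it is assumed to vary like the others. The replicate numbers are not shown to pair libraries: same-numbered juvenile and adult libraries correlated at -0.05 to 0.04 in their deviations from the group means. Same-numbered induced libraries gave 0.14. With 2 libraries a group, both pairs must give the same value and the crossed pairs its negative, so this is a single value. With the number as a block, 4 members were lower in juvenile than in adult osteoblasts (268 of all 11345 genes). In *c-Myc* + *R172H* osteoblasts 1 was higher than in juvenile ones (4267 of 12588) and 2 lower than in *c-Myc* ones (296 of 12588). *Foxa2* turned to 0.19 in juvenile over adult.

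Members lower in juvenile than in adult osteoblasts numbered 11 (367 of all 11345 genes). DESeq2 gave 26 (628 of 11345) and a fit of all 12 libraries 20 (633 of 13005). Leaving out 1 library gave 1 to 19. Without adult libraries 1 and 4, a setting chosen after seeing the data, 6 were called (145 of 11755). Members higher in *c-Myc* than in juvenile osteoblasts numbered 2 (3577 of all 12588 genes), against 1 in the fit of all 12 (3341 of 13005). They were 0 when a log2 fold change of 1 or more was required and 2 to 3 leaving out 1 juvenile library. Members higher in *c-Myc* + *R172H* than in juvenile osteoblasts numbered 2 (3832 of all 12588 genes), against 1 in the fit of all 12 (3444 of 13005). They were 1 with the compared groups alone (3273 of 12350), 1 with that same requirement and 1 to 3 leaving out 1 juvenile library. Members lower in *c-Myc* + *R172H* than in *c-Myc* osteoblasts numbered 1 (58 of all 12588 genes), against 0 with library totals (11 of 12588). They were 12 with no filter on low counts (208 of 19021), 0 in the fit of all 12 (22 of 13005) and 6 with the compared groups alone (440 of 12170). The counts of members lower than juvenile ran from 28 to 31 in both induced comparisons. Over all genes, calls lower than juvenile ran from 1115 to 3640 in *c-Myc* and from 1169 to 3731 in *c-Myc* + *R172H* osteoblasts. The cause of these shifts was not tested.

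These log2 fold changes took the opposite sign in some fits. In juvenile over adult, *Foxa2* ran from -0.56 to 1.12 leaving out 1 library (0.08 without juvenile library 4, 1.12 without adult library 1). Without adult libraries 1 and 4 it was 1.34 and *Matn1* 0.27. With library totals, *Fgfr3* and *Wwp2* were 0.38 and 0.0413 in *c-Myc* over juvenile, and *Fgfr3*, *Wwp2* and *Trps1* 0.76, 0.0674 and 0.11 in *c-Myc* + *R172H* over juvenile. In *c-Myc* + *R172H* over *c-Myc*, library totals gave *Prg4* 0.20, *Chad* 0.16, *Runx3* 0.14, *Wwp2* 0.0261, *Trps1* 0.13, *Papss2* 0.0258 and *Slc26a2* 0.11, the block gave *Prg4* 0.19 and *Foxa2* 0.0135, and the groups alone gave *Prg4* 0.0011. Leaving out one library there, *Prg4* ran from -0.60 to 0.77, *Chad* from -0.51 to 0.68, *Snorc* from -0.53 to 1.39, *Clec3a* from -2.53 to 0.46 and *Foxa3* from -3.56 to 0.43.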

Other observations

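Some markers of other cells were lower in the induced libraries as well. The sort took CD31-CD45-TER119- mGFP+ cells after depletion of CD45 and TER119, a gate that would remove osteoclasts. The osteoclast list of 4 genes still summed to 203 to 332 CPM in juvenile and 221 to 411 CPM in adult libraries. *Ocstamp* of that list was at or under 3 counts in every library. Of 5 marrow stroma genes tested, 4 were called lower in *c-Myc* than in juvenile osteoblasts by edgeR, with a median log2 fold change of -0.99, and 4 in *c-Myc* + *R172H* osteoblasts, with a median of -1.60. All 3 tested tendon and periosteum genes were called lower in both comparisons (medians of -1.30 and -1.49). Of 3 osteoclast genes tested, 1 and 2 were called lower. Between the ages, 0 of the 5 marrow stroma genes and 0 of the 3 osteoclast genes were called, and 1 of the 3 tendon and periosteum genes was higher in juvenile osteoblasts. The marrow stroma list summed to 318 to 401 CPM in juvenile and 407 to 635 CPM in adult libraries, so those groups did not overlap. The endothelial, blood and muscle lists were too low to test between the ages.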
